A study of Oryza sativa with 12 samples.

Results

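The genes described here are the 90 rice genes annotated to the pathway of carbon fixation in photosynthetic organisms, out of 38867 genes in the table of the shoot apical meristem (SAM). They were chosen by that pathway term alone, in the tables of both tissues, and not by any measured value. Earlier results of these data were, however, known when the choice was made. The leaf blade table holds 90 rows with the term, and 89 of them carry the same gene ID. The remaining row in each table is an assembled gene for phosphoenolpyruvate (PEP) carboxylase, numbered differently in each. By the enzyme names and compartments in the deposited descriptions, 22 members are plastid Calvin cycle enzymes, 13 are cytosolic isoforms of enzymes of that cycle, 41 are C4-type enzymes, 2 are plastid isoforms of glycolysis and 12 have no stated compartment.

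Oryza sativa plants of wild type (WT) and of the myb110 mutant were grown in the field and sampled 1 month after transplanting. The series places MYB110, a MYB transcription factor, in a flowering-time module with Nhd1 and MADS15, and the comparison asks which SAM transcripts differ in its mutant. Each genotype had 3 libraries, each from a pool of 20 plants, so a p-value here measures the spread between pools. The mutant allele and the cultivar are not described in the labels used here, and the blade libraries are not analysed here. Libraries held 14112966 to 18896372 counts. The locus taken as MYB110 from general knowledge, Os10g0478300, named MYB4 in the deposited annotation, had 6, 0 and 1 counts in WT and 0 in each myb110 library, too few to test, so it checks the labels only weakly. MADS15 had 44, 52 and 48 counts in WT and 3, 3 and 0 in myb110. Nhd1 Os08g0157600, named LHY in the deposited annotation, had 6437, 8188 and 7450 counts in WT and 4174, 4206 and 5813 in myb110.

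In the Calvin cycle, Rubisco joins carbon dioxide to ribulose bisphosphate in the plastid, the product is phosphorylated and reduced to triose phosphate, and the remaining enzymes rebuild the acceptor. Many of these steps have cytosolic counterparts that serve glycolysis and sugar synthesis. Rice is a C3 plant, and its PEP carboxylases, malic enzymes, malate dehydrogenases and aminotransferases serve housekeeping metabolism, although the pathway term lists them for their part in C4 photosynthesis. A meristem is a sink tissue that lives largely on imported sugar, and its plastids are mostly undifferentiated.

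Among the plastid Calvin cycle members, the small subunits of Rubisco, both subunits of the NADP glyceraldehyde-3-phosphate dehydrogenase and the aldolase ALDP were lower in myb110, while 1 of the transketolases and the plastid triosephosphate isomerase were higher. Of the 18 plastid Calvin cycle members with enough counts to test, 11 fell, 2 rose and 5 did not pass, with a median log2 change of -0.37. Of the 76 members tested, 28 fell, 4 rose and 44 did not pass, with a median of -0.09. Over all 23167 genes tested, 11.7% fell and 10.9% rose, and the median change was 0.00. A change is called here by edgeR's quasi-likelihood test at an adjusted p under 0.05. Changes are log2 of myb110 over WT ± standard error, and levels are library-scaled CPM, counts relative to the library total, with 3 libraries per genotype throughout. In pooled tissue, fewer cells of a type and less RNA per cell cannot be told apart.

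The 46 members with at least 20 CPM in WT included 17 that fell and 4 that rose, 37.0% and 8.70%, and 15.5% and 14.7% of all 10334 genes at that level did so. The WT and myb110 libraries did not overlap for 43 of the 76 members (56.6%), with WT above in 37 and myb110 above in 6, while 36.1% of all tested genes did not overlap. Only 3 members reached the count filter in all WT libraries but not in all myb110 libraries, namely phosphoribulokinase, 1 small subunit of Rubisco and 1 PEP carboxykinase. In myb110 alone, 0 members did. Of the 73 members without these, 26 fell and 4 rose. Of the 16 plastid Calvin cycle members without them, 9 fell and 2 rose, with a median of -0.35.

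Transcripts of the light reactions were lower in the same libraries. Of the photosynthesis pathway, 39 of 59 rows were tested, of which 26 fell and 1 rose, and 11 rows were at 0, among them the rows annotated psbE, psbF, psbL, psbI and psbZ. Its summed level was 1012 to 1058 CPM in WT and 676.1 to 689.8 CPM in myb110. Of the antenna protein pathway, 14 of 17 rows were tested, of which 12 fell and 2 did not pass, and 0 rows were at 0. Its summed level was 849.6 to 918.5 CPM in WT and 289.7 to 305.5 CPM in myb110. The falls were 66.7% of the tested photosynthesis rows and 85.7% of the tested antenna rows, beside 11.7% of all tested genes. The rises were 2.56% and 0%, beside 10.9%. The plastid Calvin cycle members summed to 578.9 to 582.1 CPM in WT and 506.8 to 515.5 CPM in myb110, a narrower gap. That sum rests largely on plastid triosephosphate isomerase, the transketolase Os06g0133800 and the aldolase Os01g0118000, at 141, 109 and 102 CPM in WT. Their log2 changes were 0.15, -0.07 and -0.19. Median log2 changes were -0.77 for the photosynthesis pathway, -1.52 for the antenna proteins and -0.37 for the plastid Calvin cycle. The photosynthesis and antenna pathways serve as markers of photosynthesising leaf cells, and their part in the falls of Calvin cycle members was not tested.

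**Figure D1:**
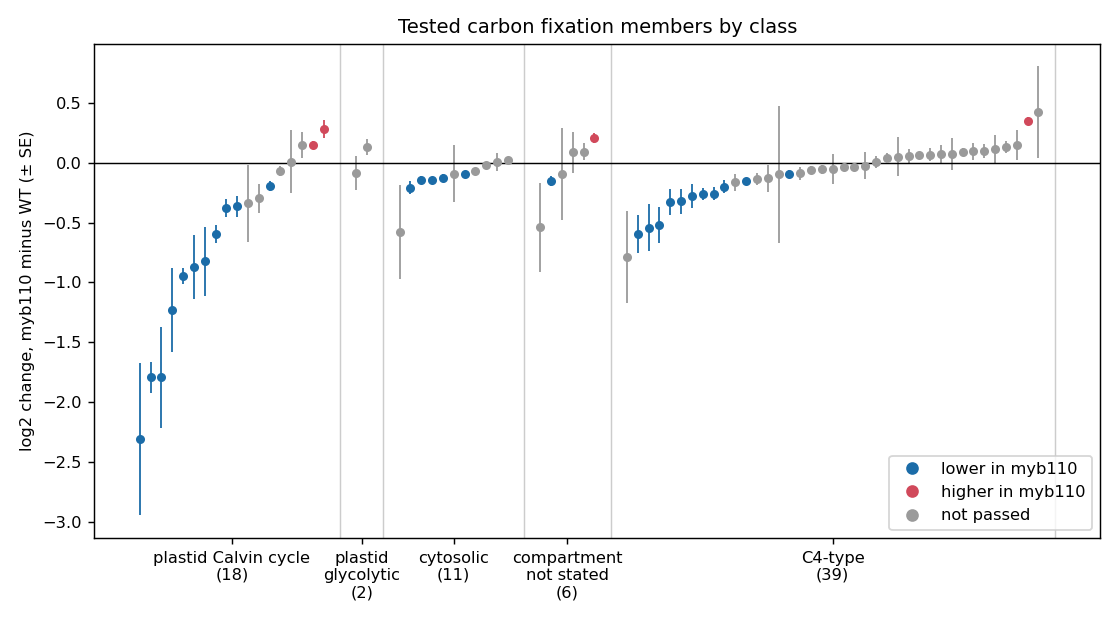
Log2 change in myb110 over WT (vertical axis) of the 76 tested carbon fixation members, grouped by compartment and role, with bars of ± 1 standard error and 3 libraries per genotype. Blue points fell, red points rose and grey points did not pass at an adjusted p under 0.05. The 18 plastid Calvin cycle members run from -2.31 to 0.28, and the C4-type members from -0.79 to 0.42.

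The small subunit of Rubisco is encoded in the nucleus by a gene family, and all 4 members of it that could be tested fell, of which 1, RBCS-A, was tested only because its WT counts reached the filter. The most abundant, RBCS Os02g0152400, had 35.7, 35.8 and 39.6 CPM in the 3 WT libraries and 22.2, 25.03 and 26 CPM in the 3 myb110 libraries. Every WT library was above every myb110 library. It fell by 0.60 ± 0.08 (adjusted p = 1.25e-07). In rice this copy is the one known from organs other than the leaf blade.

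The other small subunit genes were close to the lower limit of the test, and as near-identical copies their counts may be split between loci. RBCS-A Os12g0291100 had 0.896, 0.703 and 0.709 CPM in the 3 WT libraries and 0.0711, 0.209 and 0.159 CPM in the 3 myb110 libraries, with no overlap. It fell by 2.31 ± 0.64 (adjusted p = 0.00659), but it was kept for testing by its WT counts alone. On log2(FPKM + 1), a scale that understates changes of low genes, its change was -0.58. The RBCS-A call did not hold with myb110 library 1 removed (0.0510), the adjusted p ranging over all alternatives from 0.00660 to 0.0510 and the change from -2.59 to -0.58. RBCS Os12g0292400 had 3.03, 2.65 and 3.19 CPM in the 3 WT libraries and 1.78, 1.46 and 1.59 CPM in the 3 myb110 libraries, again without overlap, and its deposited counts were not whole in any library. It fell by 0.87 ± 0.27 (adjusted p = 0.0160). The Os12g0292400 call did not hold with WT library 3 removed (0.0630) and with myb110 library 2 or 3 removed (0.0571 and 0.0531), the adjusted p ranging over all alternatives from 0.0159 to 0.0630 and the change from -0.95 to -0.46. RBCS Os12g0274700 had 2.14, 2.86 and 2.83 CPM in the 3 WT libraries and 1.35, 1.604 and 1.48 CPM in the 3 myb110 libraries, and the genotypes were separate here too. It fell by 0.82 ± 0.29 (adjusted p = 0.0347). The Os12g0274700 call did not hold with WT library 2 or 3 removed (0.128 and 0.106), with myb110 library 1, 2 or 3 removed (0.0940, 0.0563 and 0.0859) and under DESeq2 (0.0872), the adjusted p ranging over all alternatives from 0.0213 to 0.128 and the change from -0.94 to -0.52. The copy Os12g0291400 had 9, 18 and 9 counts in the 3 WT libraries and 3, 5 and 6 in the 3 myb110 libraries and was not tested, and Os12g0291200 had 0 counts in all libraries.

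The large subunit, rbcL, is encoded in the plastid genome, whose transcripts mostly lack the poly(A) tails by which these libraries were enriched. The row Os10g0356000, annotated rbcL, had 1, 0 and 2 counts in the 3 WT libraries and 8, 0 and 4 in the 3 myb110 libraries, with overlapping genotypes, and was not tested. Its ID has the form of a nuclear locus, as do those of the other rbcL rows. The row therefore gives no measure of transcript from the plastid gene. Of the rbcL rows without a stated compartment, Os01g0791033 had 0, 3 and 5 counts in the 3 WT libraries and 0, 0 and 1 in the 3 myb110 libraries, and Os12g0207600 had 0, 4 and 3 counts in the 3 WT libraries and 0, 3 and 3 in the 3 myb110 libraries. Neither was tested, and Os01g0899425 and Os05g0427800 had 0 counts throughout.

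In the reduction phase, phosphoglycerate kinase (PGK) and the heteromeric NADP glyceraldehyde-3-phosphate dehydrogenase, built from GAPA and GAPB subunits, turn the product of Rubisco into triose phosphate. All 3 plastid genes of this phase fell, and GAPA fell most. GAPA Os04g0459500 had 19.2, 17.5 and 19.3 CPM in the 3 WT libraries and 4.26, 6.42 and 5.401 CPM in the 3 myb110 libraries. The lowest WT library was above the highest myb110 library by more than the whole spread within either genotype. It fell by 1.80 ± 0.13 (adjusted p = 5.87e-14), and over the alternative settings its change ran from -1.93 to -1.56. GAPB Os03g0129300 had 22.9, 24.9 and 22.9 CPM in the 3 WT libraries and 19.1, 17.99 and 17.9 CPM in the 3 myb110 libraries. Its genotypes did not overlap either, and it fell by 0.37 ± 0.09 (adjusted p = 0.00177). Plastid PGK Os05g0496200 had 30.5, 28.9 and 29.6 CPM in the 3 WT libraries and 22.3, 23.6 and 22.5 CPM in the 3 myb110 libraries, separate between the genotypes. It fell by 0.38 ± 0.08 (adjusted p = 3.12e-04).

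GAPA and GAPB form the enzyme together, so their balance was compared as a ratio. The ratio of GAPA to GAPB, in CPM without correction for length, was 0.840, 0.701 and 0.843 in WT and 0.223, 0.357 and 0.302 in myb110, with no overlap. A two-sided exact permutation test gave p = 0.1, which is the smallest value that 3 libraries against 3 can give, and 0.1 after adjustment over the 3 ratios computed. The 3 ratios were not among the planned comparisons. Each pairs genes whose own changes differed in these data, so a separated ratio restates those changes and gives no further support.

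Triosephosphate isomerase and aldolase connect the trioses and join them to hexose bisphosphate. The plastid isomerase TPIP1 Os09g0535000 was the most abundant plastid Calvin cycle member, with 139.6, 144 and 139 CPM in the 3 WT libraries and 157, 155 and 157 CPM in the 3 myb110 libraries. It was higher in every myb110 library than in any WT library and rose by 0.15 ± 0.04 (adjusted p = 0.00164). The plastid aldolase ALDP Os11g0171300 had 53.6, 56.96 and 53.7 CPM in the 3 WT libraries and 30.3, 28.4 and 26.9 CPM in the 3 myb110 libraries, far apart between the genotypes. It fell by 0.95 ± 0.06 (adjusted p = 1.56e-14). A second plastid aldolase, FBA3 Os01g0118000, had 101, 101 and 104 CPM in the 3 WT libraries and 92.2, 89.3 and 87.05 CPM in the 3 myb110 libraries, also without overlap. It fell by 0.19 ± 0.04 (adjusted p = 7.21e-04). The ratio of ALDP to FBA3 in CPM was 0.529, 0.562 and 0.517 in WT and 0.328, 0.318 and 0.309 in myb110, with no overlap (two-sided exact permutation p = 0.1, the smallest possible, and 0.1 adjusted).

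Regeneration of the acceptor uses the bisphosphatases, transketolase, the pentose phosphate isomerase and epimerase, and phosphoribulokinase. Sedoheptulose-1,7-bisphosphatase, which has no cytosolic counterpart and is specific to the cycle, had 2.62, 2.49 and 1.54 CPM in the 3 WT libraries and 1.14, 0.906 and 0.794 CPM in the 3 myb110 libraries (Os04g0234600). All WT libraries were above all myb110 libraries. It fell by 1.23 ± 0.35 (adjusted p = 0.00948). The sedoheptulose-1,7-bisphosphatase call did not hold with WT library 1 or 2 removed (0.0562 and 0.0633), the adjusted p ranging over all alternatives from 0.00458 to 0.0633 and the change from -1.44 to -0.56. Phosphoribulokinase Os02g0698000, the enzyme that makes the acceptor, had 1.59, 3.03 and 1.36 CPM in the 3 WT libraries and 0.355, 0.906 and 0.477 CPM in the 3 myb110 libraries, with no overlap. Phosphoribulokinase fell by 1.79 ± 0.42 (adjusted p = 0.00151), and it too was kept for testing by its WT counts alone. The phosphoribulokinase call did not hold with WT library 2 removed (0.0665), the adjusted p ranging over all alternatives from 2.30e-04 to 0.0665 and the change from -2.23 to -0.71, and its deposited counts were not whole in any library. The other phosphoribulokinase row, Os04g0596900, had 0 counts throughout.

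Plastid fructose-1,6-bisphosphatase Os06g0664200, which makes fructose 6-phosphate, had 2.69, 2.05 and 2.24 CPM in the 3 WT libraries and 2.13, 2.65 and 2.22 CPM in the 3 myb110 libraries, and the genotypes overlapped. Its change was 0.01 ± 0.27 (adjusted p = 0.987), with a 95% interval of -0.53 to 0.55. A further plastid fructose-1,6-bisphosphatase, Os03g0267300, had 8, 5 and 7 counts in the 3 WT libraries and 1, 2 and 3 in the 3 myb110 libraries and was not tested. Transketolase moves carbon pairs between sugar phosphates and also serves the pentose phosphate pathway. The transketolase TKL-2 Os06g0133800 had 112, 108 and 105 CPM in the 3 WT libraries and 98.2, 105 and 106 CPM in the 3 myb110 libraries, overlapping between the genotypes. Its change was -0.07 ± 0.04 (adjusted p = 0.282). The less abundant transketolase, TKL-2 Os04g0266900, had 27.1, 24.5 and 26.4 CPM in the 3 WT libraries and 31.4, 31.6 and 31.5 CPM in the 3 myb110 libraries, with myb110 above WT throughout, and rose by 0.28 ± 0.08 (adjusted p = 0.00559). The ratio of Os04g0266900 to Os06g0133800 in CPM was 0.241, 0.227 and 0.251 in WT and 0.320, 0.300 and 0.296 in myb110, without overlap (two-sided exact permutation p = 0.1, the smallest possible, and 0.1 adjusted). Plastid ribulose-phosphate epimerase Os03g0169100 had 11.9, 11.6 and 11.8 CPM in the 3 WT libraries and 8.81, 9.69 and 10.01 CPM in the 3 myb110 libraries, separate between the genotypes, and its change of -0.30 ± 0.12 did not pass (adjusted p = 0.0676). The plastid ribose-5-phosphate isomerases RPI3 and RPI4 had changes of 0.15 ± 0.11 and -0.34 ± 0.32, which did not pass (adjusted p = 0.383 and 0.508).

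**Figure D2:**
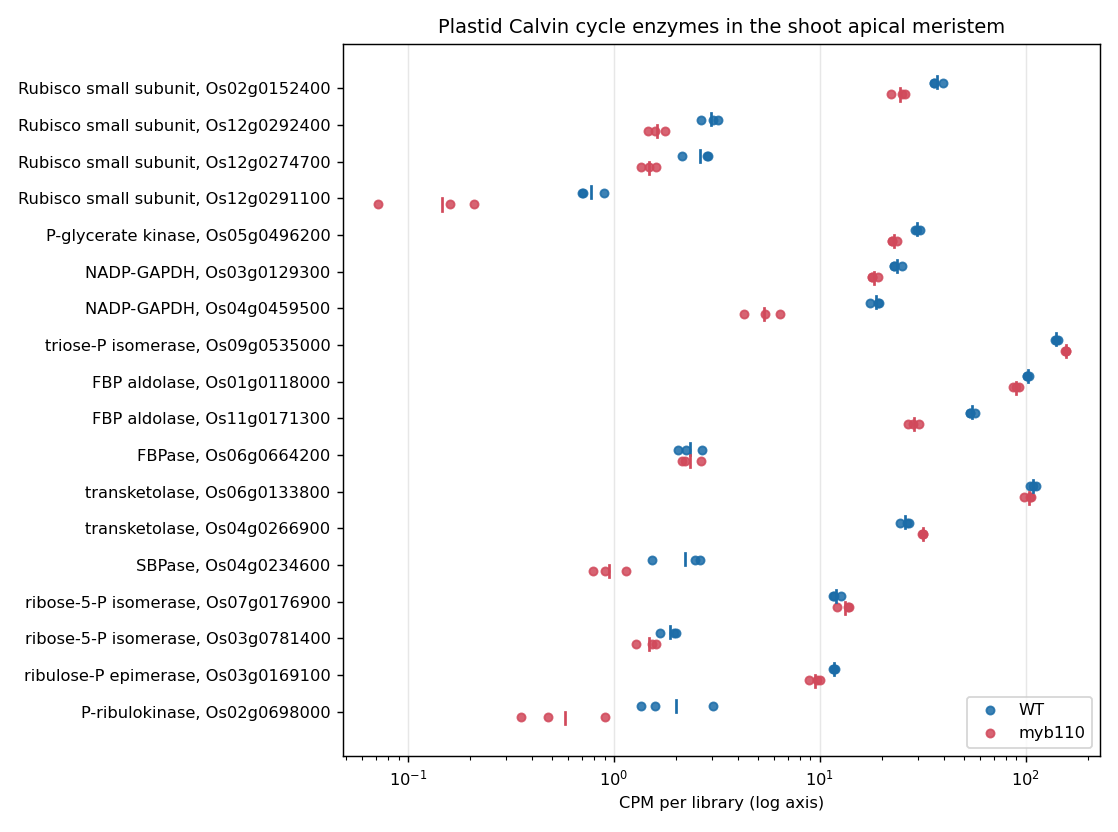
Level of each tested plastid Calvin cycle member in each library, in CPM on a log axis, with WT in blue, myb110 in red and vertical ticks at the group means (3 libraries per genotype). GAPA, ALDP and the Rubisco small subunits lie lower in all myb110 libraries, while TPIP1 and the transketolase Os04g0266900 lie higher.

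Several cytosolic isoforms, which serve glycolysis, the pentose phosphate pathway and sucrose synthesis, fell slightly. Of the 11 tested, 5 fell and 6 did not pass, with a median of -0.09. The falls were 45.5% of those tested, beside 11.7% of all tested genes. Among all genes with at least 20 CPM in WT, 15.5% fell. GAPC2 Os04g0486600, a cytosolic glyceraldehyde-3-phosphate dehydrogenase of glycolysis, had 1357, 1399 and 1413 CPM in the 3 WT libraries and 1289.8, 1310.3 and 1314 CPM in the 3 myb110 libraries. The genotypes did not overlap, although the margin was narrow. GAPC2 fell by 0.09 ± 0.02 (adjusted p = 0.00122). Per length, in FPKM, GAPC2 stood at 1344 ± 31.6 in WT and 1273 ± 12.9 in myb110, and GAPC1 Os08g0126300 at 1339.8 ± 47.2 and 1373 ± 10.7 (SD, n = 3). These were the most abundant members, and in WT they did not differ beyond their spread. The log2 change of GAPC1 was 0.02 ± 0.02 and did not pass (adjusted p = 0.523).

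Cytosolic triosephosphate isomerase Os01g0147900 had 406, 429 and 439 CPM in the 3 WT libraries and 383, 381 and 389 CPM in the 3 myb110 libraries, without overlap. It fell by 0.15 ± 0.03 (adjusted p = 1.38e-04), opposite in direction to its plastid isoform. The glycolytic dehydrogenase GAPC3 Os02g0601300 fell by 0.15 ± 0.03 (adjusted p = 0.00159), from 213 ± 7.08 to 193 ± 8.23 CPM. The genotypes were separate for it. Cytosolic ribulose-phosphate epimerase Os09g0505700, of the pentose phosphate pathway, fell by 0.21 ± 0.05 (adjusted p = 0.00374), from 55.3 ± 0.784 to 47.8 ± 0.464 CPM. The cytosolic kinase PGK3 Os06g0668200 fell by 0.13 ± 0.04 (adjusted p = 0.00858). The PGK3 call did not hold with WT library 1 removed (0.0585) and with myb110 library 1 removed (0.0737), the adjusted p ranging over all alternatives from 0.00574 to 0.0737 and the change from -0.14 to -0.10. The more abundant copy, PGK3 Os02g0169300, had a change of -0.07 ± 0.03, which did not pass (adjusted p = 0.0526). It was called with library totals alone (0.0499) and with WT library 2 removed (0.0348), and its adjusted p over the alternatives ran from 0.0348 to 0.185. Deposited counts were not whole in any library for this copy and in most libraries for Os06g0668200, so reads of these copies may be split. The cytosolic aldolase FBA3 Os01g0905800 had a change of -0.02 ± 0.02, which did not pass (adjusted p = 0.603). Cytosolic fructose-1,6-bisphosphatase CFBP Os05g0438600, a step of sucrose synthesis, had a change of -0.09 ± 0.24, which did not pass (adjusted p = 0.831).

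For 6 enzymes with plastid and cytosolic isoforms, the plastid share of their summed FPKM, which is scaled for gene length, could be set side by side. NADP and cytosolic NAD glyceraldehyde-3-phosphate dehydrogenase together were 1.09% ± 0.0032 plastid in WT and 0.673% ± 0.0294 in myb110 (SD, n = 3). This share covers GAPA and GAPB only, which summed to 30.38 to 31.91 FPKM in WT and 17.76 to 19.74 FPKM in myb110. The plastid glycolytic GAPCP2 and GAPCP1 were left out of it. They summed to 44.65 to 56.1 FPKM in WT and 55.31 to 58.15 FPKM in myb110. For aldolase the plastid share was 19.6% ± 0.384 in WT and 15.8% ± 0.663 in myb110. It leaves out the aldolase FBA1 Os05g0402700, which has no stated compartment, at 93.2 FPKM in WT and 83.8 FPKM in myb110. The plastid aldolases summed to 107.1 to 109.4 FPKM in WT, so the size of the share depends on where FBA1 belongs. Rows without a stated compartment were also left out for PGK, triosephosphate isomerase and fructose-1,6-bisphosphatase. PGK was 6.77% ± 0.156 plastid in WT and 5.72% ± 0.0538 in myb110. In these 3 enzymes the share was lower in every myb110 library than in any WT library. Triosephosphate isomerase was the other way round, at 17.2% ± 0.499 plastid in WT and 20.3% ± 0.197 in myb110, again without overlap. The share of ribulose-phosphate epimerase was 13.8% ± 0.044 in WT and 13.0% ± 0.849 in myb110, also without overlap, but only just, since the lowest WT library was at 13.73% and the highest myb110 library at 13.72%. For fructose-1,6-bisphosphatase, at low counts, it spread from 36.3% to 69.0% within WT alone. The 6 shares were not among the planned comparisons. They are built from genes whose own changes are given above, so a separated share restates those changes and gives no further support.

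**Figure D3:**
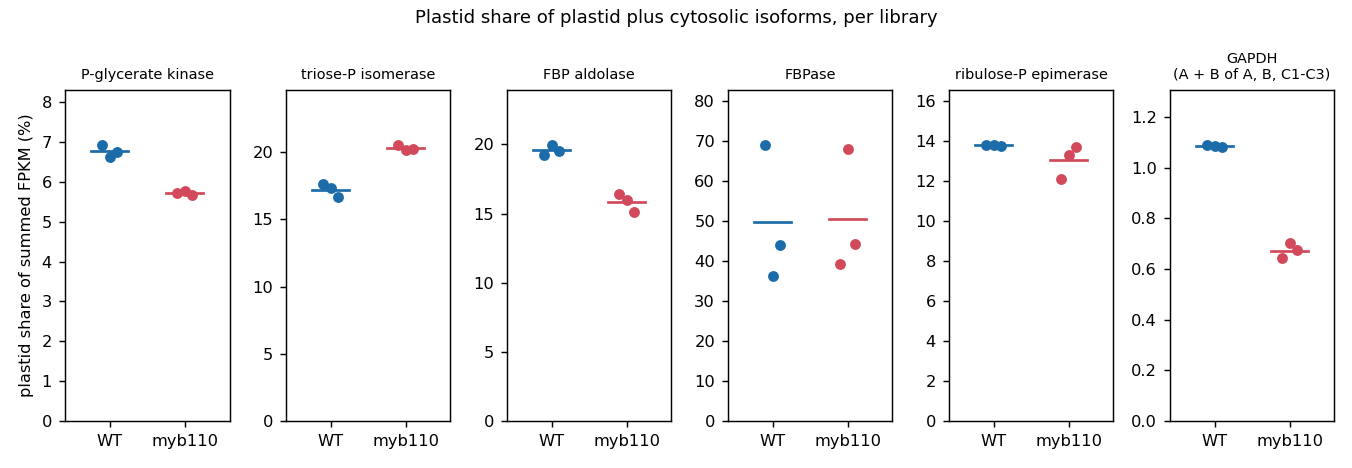
Plastid Calvin cycle isoforms as a percentage of the summed FPKM of these and the cytosolic isoforms of each enzyme. There is 1 point per library (WT blue, myb110 red, 3 per genotype) and a line at each mean. Isoforms without a stated compartment and the plastid glycolytic GAPCP1 and GAPCP2 are left out. The share is lower in myb110 for phosphoglycerate kinase, aldolase and the GAPA and GAPB glyceraldehyde-3-phosphate dehydrogenase. It is higher for triosephosphate isomerase and widely spread for fructose-1,6-bisphosphatase.

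Of the 39 C4-type members tested, 11 fell, 1 rose and 27 did not pass, with a median of -0.05. These shares, 28.2% lower and 2.56% higher, stand beside 11.7% and 10.9% of all tested genes. Among genes with at least 20 CPM in WT, 15.5% fell and 14.7% rose. The cytosolic and C4-type members together gave 16 falls and 1 rise among 50 tested, 32% and 2%. The single rise was an NADP malic enzyme, Os01g0723400, which oxidises malate to pyruvate and yields NADPH. It had 176, 185 and 185 CPM in the 3 WT libraries and 237, 229 and 228 CPM in the 3 myb110 libraries. Every myb110 library was above every WT library, and the gene rose by 0.35 ± 0.03 (adjusted p = 1.02e-10). The other 4 NADP malic enzymes did not pass, among them ME6 Os01g0188400, described as chloroplastic, with a change of -0.06 ± 0.04 (adjusted p = 0.235), and NADP-ME3 Os02g0665000, with 0.01 ± 0.05 (adjusted p = 0.959). The low ME6 Os05g0186300 had 0.758, 0.865 and 1.36 CPM in the 3 WT libraries and 1.28, 1.53 and 1.22 CPM in the 3 myb110 libraries, overlapping, while its deposited FPKM were 0.335, 0.376 and 4.18 in WT and 0.57, 0.687 and 0.543 in myb110, so 1 WT library set the order of its FPKM means. The mitochondrial NAD malic enzyme NAD-ME2 Os10g0503500 had a change of 0.06 ± 0.03, which did not pass (adjusted p = 0.153). In FPKM it stood at 156 ± 0.748 in WT and 179 ± 2.93 in myb110 (SD, n = 3), without overlap. Limma on log2(FPKM + 1) gave a change of 0.19 and called it (adjusted p = 8.23e-04), with adjusted p over the alternatives up to 0.381, so its call depends on whether counts or FPKM are tested.

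PEP carboxylase adds bicarbonate to PEP and refills the citric acid cycle in C3 tissue, and 4 of its 7 tested genes fell. That share, 57.1%, stands beside 11.7% of all tested genes and 15.5% of those with at least 20 CPM in WT. PEP4 Os09g0315700 had 73.3, 66.96 and 66.1 CPM in the 3 WT libraries and 57.1, 56.5 and 58.3 CPM in the 3 myb110 libraries, without overlap, and fell by 0.26 ± 0.05 (adjusted p = 2.39e-04). PPC16 Os01g0758300, described as the housekeeping isozyme, fell by 0.26 ± 0.06 (adjusted p = 6.68e-04), from 64.2 ± 3.63 to 53.8 ± 3.52 CPM. The deposited counts of PPC16 were not whole in any library. PPC4 Os01g0110700 fell by 0.52 ± 0.15 (adjusted p = 0.00822). PPC4 was the least abundant of the 4 genes that fell and had the widest change. The PPC4 call did not hold under limma at both FPKM pseudocounts (0.111 and 0.119), the adjusted p ranging over all alternatives from 0.00676 to 0.119 and the change from -0.56 to -0.32. The most abundant gene, PEPC Os02g0244700, fell by 0.09 ± 0.03 (adjusted p = 0.0192), from 249 ± 1.603 to 233 ± 4.47 CPM. The PEPC call did not hold with WT library 1 or 2 removed (0.0570 and 0.0548), with myb110 library 1 or 2 removed (0.108 and 0.0614) and under limma at both FPKM pseudocounts (0.334 and 0.332), the adjusted p ranging over all alternatives from 0.0182 to 0.334 and the change from -0.11 to -0.04.

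PPDK1 Os05g0405000, a pyruvate, phosphate dikinase, which regenerates PEP from pyruvate, fell by 0.20 ± 0.05 (adjusted p = 0.00404), from 68.95 ± 2.62 to 59.97 ± 2.67 CPM. The most abundant PEP carboxykinase, Os10g0204300, had a change of 0.04 ± 0.05, which did not pass (adjusted p = 0.628).

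Malate dehydrogenases interconvert malate and oxaloacetate in several compartments. Mitochondrial MMDH Os05g0574400 had 243, 232 and 243 CPM in the 3 WT libraries and 214, 219 and 211 CPM in the 3 myb110 libraries, without overlap, and fell by 0.16 ± 0.03 (adjusted p = 2.05e-04). The plastid enzyme Os07g0630800 fell by 0.60 ± 0.16 (adjusted p = 0.00490), from 7.59 ± 0.386 to 5.005 ± 0.360 CPM. On log2(FPKM + 1) its change was -0.36 and still passed (adjusted p = 0.0409), with adjusted p over the alternatives from 0.00321 to 0.0439. Chloroplastic NADP malate dehydrogenase MDH1 Os08g0562100, which exports reducing power from the plastid, fell by 0.32 ± 0.11 (adjusted p = 0.0228). The MDH1 call did not hold with WT library 2 removed (0.175), with myb110 library 1 or 2 removed (0.105 and 0.0837), under DESeq2 (0.0779) and under limma at both FPKM pseudocounts (0.0686 and 0.0694), the adjusted p ranging over all alternatives from 0.0142 to 0.175 and the change from -0.41 to -0.24. A cytoplasmic-like enzyme, Os04g0551200, fell by 0.54 ± 0.19 (adjusted p = 0.0405). Both of these were below 20 CPM in either genotype. The Os04g0551200 call did not hold with WT library 1 or 3 removed (0.0536 and 0.230), with myb110 library 1 or 3 removed (0.143 and 0.106), under DESeq2 (0.115) and under limma at both FPKM pseudocounts (0.0655 and 0.0693), the adjusted p ranging over all alternatives from 0.0380 to 0.230 and the change from -0.63 to -0.40.

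The abundant cytosolic malate dehydrogenase Os10g0478200 carries the locus number just before that of MYB110. It had 481, 475 and 486 CPM in the 3 WT libraries and 461, 469 and 475 CPM in the 3 myb110 libraries, close together and just separate between the genotypes. Its change was -0.04 ± 0.03 and did not pass (adjusted p = 0.307). NADP malate dehydrogenase Os01g0933400 had a change of -0.16 ± 0.07, which did not pass (adjusted p = 0.0970), and it shares its description with Os12g0267064, so reads of these copies may be split.

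The aminotransferases move amino groups between aspartate, alanine, glutamate and their oxoacids. ASP1 Os06g0548000, a mitochondrial aspartate aminotransferase, fell by 0.33 ± 0.11 (adjusted p = 0.0278). The ASP1 call did not hold with WT library 2 removed (0.231), with myb110 library 2 or 3 removed (0.134 and 0.0770), under DESeq2 (0.0955) and under limma at both FPKM pseudocounts (0.0796 and 0.0808), the adjusted p ranging over all alternatives from 0.0203 to 0.231 and the change from -0.39 to -0.22. The far more abundant ASP1 Os02g0236000 had a change of 0.09 ± 0.04, which did not pass (adjusted p = 0.0708). It was called with WT library 2 removed (0.0395) or myb110 library 2 removed (0.0231), and its adjusted p over the alternatives ran from 0.0231 to 0.323. The alanine aminotransferase ALAAT2 Os10g0390600 fell by 0.28 ± 0.10 (adjusted p = 0.0357). The ALAAT2 call did not hold with WT library 2 or 3 removed (0.146 and 0.0759), with myb110 library 2 or 3 removed (0.238 and 0.0872), under DESeq2 (0.107) and under limma at both FPKM pseudocounts (0.0944 and 0.0961), the adjusted p ranging over all alternatives from 0.0111 to 0.238 and the change from -0.37 to -0.19. Its neighbour in locus number, ALAAT2 Os10g0390500, had a change of 0.13 ± 0.05, which did not pass (adjusted p = 0.0525). It was called with WT library 2 removed (0.0479) or myb110 library 2 removed (0.0451), and its adjusted p over the alternatives ran from 0.0451 to 0.186. GGAT1 Os07g0108300, a glutamate-glyoxylate aminotransferase of photorespiration, had a change of 0.10 ± 0.06, which did not pass (adjusted p = 0.274).

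Among the 6 tested members without a stated compartment, 1 rose and 1 fell. Each is 16.7% of those tested, beside 10.9% and 11.7% of all tested genes. The ribose-5-phosphate isomerase RPI1 Os04g0306400, an enzyme of the pentose phosphate sugars, had 89.4, 92.6 and 91.6 CPM in the 3 WT libraries and 109.5, 101 and 106 CPM in the 3 myb110 libraries, with myb110 above WT in every library. It rose by 0.21 ± 0.04 (adjusted p = 3.75e-04). The aldolase FBA1 Os05g0402700 fell by 0.16 ± 0.04 (adjusted p = 0.00483), from 118 ± 3.64 to 106 ± 4 CPM. FBA1 was separate between the genotypes too. The plastid glycolytic dehydrogenases GAPCP2 and GAPCP1 had changes of 0.13 ± 0.07 and -0.09 ± 0.14, and neither passed (adjusted p = 0.189 and 0.728). Of the 14 members that could not be tested, 8 had 0 counts in every library.

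Genes that work beside the cycle but lie outside the pathway term were read from a list of 48 rows covering Rubisco activase, assembly factors, carbonic anhydrase, the plastid triose phosphate exporter and photorespiration. Of the 42 tested, 7 fell, 5 rose and 30 did not pass, with a median of -0.01. These shares, 16.7% lower and 11.9% higher, were near the 11.7% and 10.9% of all tested genes, and the genes below are described singly. CP12-1 Os03g0306800, a small protein that binds glyceraldehyde-3-phosphate dehydrogenase and phosphoribulokinase in the dark, had 89.7, 81.3 and 90.1 CPM in the 3 WT libraries and 53.02, 57.5 and 55.01 CPM in the 3 myb110 libraries. All WT libraries were higher, and it fell by 0.66 ± 0.05 (adjusted p = 9.63e-13). ACA1 Os04g0412500, annotated as a plastid alpha carbonic anhydrase, which interconverts carbon dioxide and bicarbonate, had 38.7, 37.9 and 38.8 CPM in the 3 WT libraries and 20.97, 20.1 and 19.8 CPM in the 3 myb110 libraries, without overlap. It fell by 0.93 ± 0.07 (adjusted p = 1.83e-12). RCA Os11g0707000, the Rubisco activase that frees the active site of inhibitory sugars, had 16.8, 15.8 and 14.9 CPM in the 3 WT libraries and 11.9, 9.83 and 8.68 CPM in the 3 myb110 libraries, also separate. It fell by 0.65 ± 0.12 (adjusted p = 4.93e-05). The other activase, RCA2 Os04g0658300, had a change of 0.07 ± 0.16, which did not pass (adjusted p = 0.811). CPN60A1 Os12g0277500, a subunit of the plastid chaperonin that folds the large subunit of Rubisco, fell by 0.37 ± 0.05 (adjusted p = 2.60e-07), from 79.6 ± 3 to 61.7 ± 1.11 CPM. The more abundant CPN60A1 Os03g0859600, at 141 CPM in WT, had a change of -0.03 ± 0.04, which did not pass (adjusted p = 0.615).

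Among the partner genes that rose was GLO4 Os07g0616500, a glycolate oxidase of the peroxisome, with 22.4, 24.1 and 24.2 CPM in the 3 WT libraries and 32.9, 30.8 and 33.4 CPM in the 3 myb110 libraries. Its genotypes did not overlap, and it rose by 0.46 ± 0.08 (adjusted p = 1.74e-05). GDH2 Os02g0170100, the H protein of the mitochondrial glycine cleavage system, rose by 0.23 ± 0.05 (adjusted p = 3.18e-04), from 83.4 ± 5.996 to 98.1 ± 3.05 CPM. TPT Os01g0239200, the translocator that exchanges triose phosphate for phosphate across the plastid envelope, rose by 0.19 ± 0.05 (adjusted p = 0.00213), from 79.02 ± 2.103 to 90.4 ± 4.83 CPM. All 3 were separate between the genotypes. The second TPT gene, Os05g0241200, and the second GDH2 gene, Os06g0667600, had changes of 0.02 ± 0.08 and -0.02 ± 0.05. Neither passed (adjusted p = 0.880 and 0.824). The other falls were the carbonic anhydrase ACA7 Os08g0470200, the chaperonin CPN60B1 Os06g0114000 and the glycine decarboxylase GDCSP Os06g0611900. The more abundant GDCSP Os01g0711400 had a change of -0.03 ± 0.04, which did not pass (adjusted p = 0.719). The other rises were the glycolate oxidase GLO5 Os07g0152900 and the chaperonin CPN60B4 Os04g0443900, so chaperonin and glycine cleavage genes moved in both directions.

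Meristem markers of the KNOX family summed to 480.3 to 490.5 CPM in WT and 469.6 to 495.6 CPM in myb110, and of the 4 tested of 5, OSH1 fell by 0.09 on the log2 scale and 3 did not pass. Transcripts of meristem identity were thus present in all 6 libraries. All 8 lateral organ markers, YABBY genes with DL and PLA1, were tested, of which 3 fell (YAB3, YAB6 and PLA1) and 2 rose (YAB5 and DL). These shares, 37.5% and 25%, stand beside 11.7% and 10.9% of all tested genes. The lateral organ markers summed to 144.3 to 148.3 CPM in WT and 139.2 to 143.3 CPM in myb110, lower in every myb110 library. The cytosolic members summed to 4069 to 4208 CPM in WT and 3915 to 3984 CPM in myb110, and the C4-type members to 3059 to 3072 and 2990 to 3044 CPM.

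**Figure D4:**
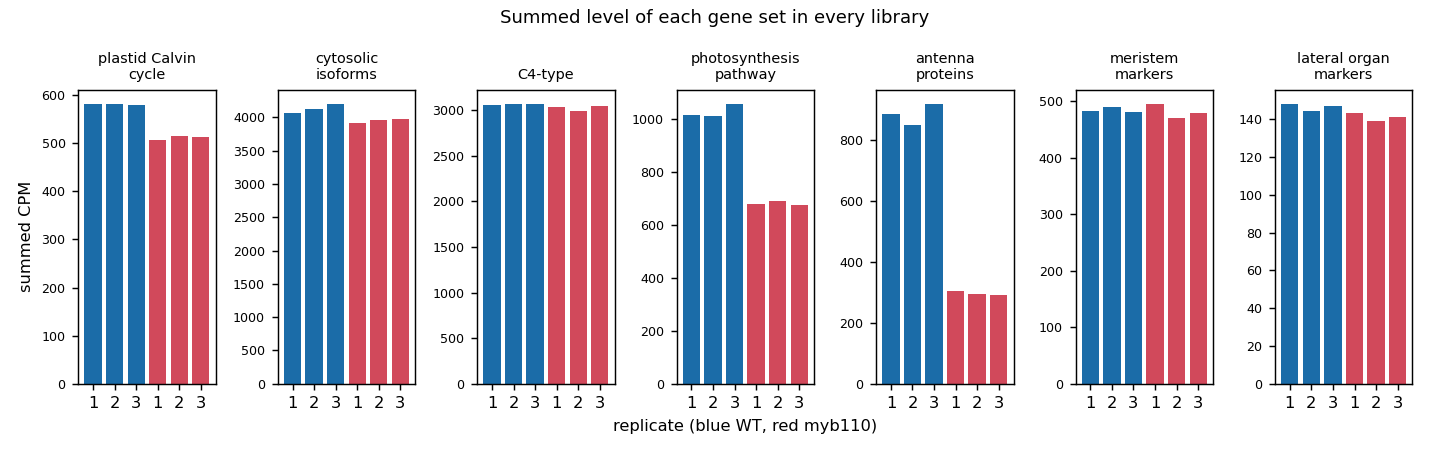
Summed CPM of each gene set in each library (bars from 0, WT blue, myb110 red, 3 libraries per genotype). The antenna and photosynthesis sets are lower in every myb110 library by more than the plastid Calvin cycle set, and the meristem sums overlap between the genotypes. The plastid Calvin cycle sum rests largely on plastid triosephosphate isomerase, the transketolase Os06g0133800 and the aldolase Os01g0118000.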

How the data were processed

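Poly(A)-enriched RNA of rice SAM was sequenced from 3 pools of 20 plants for each genotype, per the labels. Per the submitters' processing notes, fastp was used on the reads. Which aligner, counter, build and annotation followed is not given in the sources used here. Deposited values are estimated counts, of which 12.3% to 13.2% per library were not whole (tolerance 0.005), and FPKM, per the file headers. Strand use in counting is not stated, so overlapping and antisense genes are uncertain. SAM columns were matched by genotype and number in their names, and the tissue rests on the name of the table. Blade columns matched no label of a genotype, so both blade comparisons were not run and 24 columns of per-sample values, 6 of them in the SAM table, were not used. The table held 0 rows without a gene name.

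Estimated counts were rounded, genes were kept by filterByExpr (minimum count 10), libraries were scaled by TMM (factors 0.998 to 1.00), and the genotypes were compared by the robust quasi-likelihood test of edgeR (version 4.0.16, R 4.3.3) with Benjamini-Hochberg adjustment over 23167 genes and a threshold of 0.05. Standard errors were taken as |log2 change| divided by the root of edgeR's F statistic. CPM are TMM-scaled. The biological coefficient of variation was 0.0465, and replicate libraries differed by more than counting noise (chi-square 2.15 to 2.63 per gene). Alternatives were RLE factors, library totals alone, no filter, a replicate block, DESeq2 1.42.0, limma 3.58.1 on log2(FPKM + 1) and log2(FPKM + 0.1), and each library left out; counting only members with whole counts in all 6 libraries was added after the data were seen. The steps were tested on simulated counts.

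The members and lists were chosen with earlier results of these data known, so p-values are adjusted over all genes and never over a list. Classes were assigned by hand from the deposited descriptions. Named are plastid Calvin cycle members of at least 20 CPM in WT, the most abundant gene of each other enzyme, the 6 largest falls and rises of at least 5 CPM, the small subunits of Rubisco, and RCA with up to 3 partner genes each way by lowest p. MYB110, Nhd1 and MADS15 were planned as checks, and the meristem and lateral organ markers as lists. Every other gene named was chosen after its values were seen. The 3 ratios of plastid genes and the 6 plastid shares were not among the planned comparisons. No sequence or coordinate was used here.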

Additional observations from a re-analysis of the deposited data

How the results depend on the processing

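Over the alternatives, members called lower numbered 22 to 30 and higher 4 to 6, and plastid Calvin cycle members 8 to 12 lower and 2 higher. Of the cytosolic and C4-type members, 16 were called lower, and 10 by limma on FPKM with either pseudocount; 1 was called higher, 2 by either limma fit, and 1 to 3 with each library left out, the 3 without WT replicate 2 and without myb110 replicate 2. The cause was not tested. Partner genes called lower numbered 7 to 9 and higher 4 to 6. Of 39 named genes called, 27 were called under every alternative and 12 were lost in at least 1. Of the uncalled named genes, 4 were called in at least 1: NAD-ME2 in both limma fits, PGK3 Os02g0169300 with library totals alone and without WT replicate 2, and ASP1 Os02g0236000 and ALAAT2 Os10g0390500 without WT replicate 2 and without myb110 replicate 2. CFBP Os05g0438600, uncalled at -0.09, ran from -0.24 without myb110 replicate 3 to 0.048 without myb110 replicate 2, and was 0.037 without WT replicate 2. Replicate numbers did not pair the libraries, with correlations of same-numbered deviations of -0.0313 to 0.0102, and a fit with a replicate block called the same numbers, 28 lower and 4 higher. Counting only members with whole counts in all 6 libraries, chosen after seeing the data, gave 20 lower and 4 higher, and 8 lower and 2 higher for the plastid Calvin cycle. Members near 1 to 3 CPM, the chromosome 12 Rubisco copies, phosphoribulokinase and sedoheptulose-1,7-bisphosphatase, rest on few counts per library, and fructose-1,6-bisphosphatase had too few for a change of under about 0.5 to be seen.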
